A study of Mus musculus with 29 samples.

Results

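The 10 genes described here encode transcription factors of the heart: the GATA factors Gata4 and Gata6, the homeobox factor Nkx2-5, the MEF2 family members Mef2a, Mef2c and Mef2d, the basic helix-loop-helix factor Hand2, the T-box factors Tbx5 and Tbx20, and serum response factor, Srf. They were taken by gene symbol, and each had its row among the 29955 genes of the mouse expression table. All 10 passed the minimum mean of 0.5 FPKM over the libraries and were among the 12759 genes tested. FPKM is the number of sequenced fragments scaled to the length of the transcript and to the size of the library, so that levels of different genes can be set side by side.

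The mice were wild-type males of the C57BL/6J strain (C57BL6 in the labels), 3 months old at the start. Heart failure (HF) was induced over 5 weeks by L-NAME (0.3 mg/ml), which blocks nitric oxide synthase, and NaCl (1%) in the drinking water, and from week 1 by angiotensin II at 0.7 mg/kg/day from an osmotic pump that lasts 28 days. HF week 3 (2 libraries) and HF week 5 (3 libraries) were taken during or at the end of induction, and Recovery weeks 7 (2 libraries), 9 (2 libraries), 11 (3 libraries), 13 (2 libraries) and 19 (5 libraries) after all agents had ended. Control week 19 (5 libraries) came from untreated mice of the age of the last recovery group. These controls stood in for week 5 controls in all comparisons, so the mice of HF week 5 were 14 weeks younger than the controls, those of HF week 3 were 16 weeks younger and those of Recovery weeks 7 to 13 were 12 to 6 weeks younger. Age and treatment cannot be told apart in the comparisons of HF and of Recovery weeks 7 to 13 with control. The labels name the tissue as whole heart and as ventricle, whereas the methods of the study name the apical portion.

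In the heart these factors work as a network. GATA4, NKX2-5, TBX5 and HAND2 bind regulatory DNA of the same muscle genes and one another, MEF2 and SRF are MADS-box proteins that bind AT-rich sites and couple muscle genes to calcium and stress signals, and TBX20 maintains the adult muscle cell. TBX5 is known for higher levels in the atria than in the ventricles.

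Some libraries stood apart. HF week 3 library 1 listed 12816 genes above 0 where the others listed 16339 to 18091, and its correlation with HF week 3 library 2 was 0.885 over genes. HF week 5 library 1 correlated with the other HF week 5 libraries at 0.952 and 0.956, whereas those correlated with each other at 0.984. Control week 19 library 5 had the lowest correlations of its group, 0.972 to 0.979. Recovery week 19 library 5 correlated with its group at 0.962 to 0.978 and had the lowest relative depth, 0.73, and its level changed by -0.158 per doubling of transcript length on the log2 scale relative to the mean of all libraries, against 0.180 in Recovery week 19 library 1. With all libraries 6 factors and 24.2% of all genes were called in Recovery week 19 against HF week 5, and without this library 7 factors were. None was called against control in limma either way. The absolute depth is unknown. The relative depth of 23 libraries lay between 0.73 and 1.39 times that of Control week 19 library 1.

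Genes of the atrial muscle cell differed widely in level between the HF libraries. Myl7, the atrial regulatory myosin light chain, was at 0.943, 0.166, 0.647, 1.12 and 0.924 FPKM in the controls. It was at 1805 and 5773 FPKM in HF week 3 and at 18388, 152 and 6.16 FPKM in HF week 5. The summed level of 9 of the 10 atrial genes examined, without Nppa, which is listed at 0 in HF week 3, was 21.9 to 26.9 FPKM in Control week 19, 7779 to 14120 in HF week 3, 27.6 to 39894 in HF week 5 and 19 to 24.0 in Recovery week 19. The high values thus lay in both HF week 3 libraries and above all in HF week 5 library 1. The ventricular gene Myl3 was at 3561 FPKM in HF week 5 library 1 and at 13712 and 13111 FPKM in the other HF week 5 libraries. Tnnt2, a defining gene of heart muscle, was at 8006, 8447, 8186, 8305 and 9465 FPKM in the controls. It was at 4391 and 5662 FPKM in HF week 3, below all controls, and at 6741, 8550 and 6972 FPKM in HF week 5. Several very abundant genes were listed at 0 in every library of a group, such as Myh6 in Control week 19, HF week 5 and Recovery week 19, Myl2 in Control week 19 and Nppa in HF week 3, and no fold change is given for these. An exact 0 in this table can be a failed estimate, and the genes named here are abundant in heart muscle, so such a 0 is not read as absence.

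Levels of most factors were below control at HF week 5, and no factor differed detectably from control at Recovery week 19. In HF week 5 against Control week 19, 6 of the 10 factors fell and none rose: Gata4, Gata6, Nkx2-5, Mef2d, Hand2 and Tbx20 had an adjusted p under 0.05 in limma. Of all genes tested 24.0% were called in either direction and 12.4% were called lower. The median log2 fold change was -0.71 over the 10 factors and 0.043 over all genes. At an unadjusted p under 0.05 the count was 8 of 10, where 36.5% of all genes passed. The libraries of HF week 5 lay wholly below those of the controls for 4 factors, Nkx2-5, Mef2a, Hand2 and Tbx20, as they did for 14.7% of all genes. Fewer muscle cells in the tissue and less mRNA in each cell cannot be told apart in such bulk samples.

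The call depended on single libraries for a part of the factors. Without HF week 5 library 1, the library with the highest atrial genes of its group, 3 factors were called (Gata6, Nkx2-5 and Hand2) and 10.7% of all genes. Only 2 HF week 5 libraries then remained. The estimates of the factors no longer called were -0.52 for Gata4, -0.90 for Mef2d and -0.94 for Tbx20, against -0.65, -1.16 and -0.81 with all libraries. Without Control week 19 library 5 the count was 8, with Mef2a and Srf added, and 28.6% of all genes. Without the HF week 3 libraries, whose spread enters the common variance, 9 factors and 34.1% of all genes were called. The libraries also differed in their trend on transcript length: per doubling of length, the log2 level relative to the mean of all libraries changed by -0.061, -0.030 and -0.040 in HF week 5, by -0.046 in Control week 19 library 5 and by 0.026 to 0.079 in the other controls. With this trend removed 7 factors were called, Mef2a added, and 26.0% of all genes.

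**Figure D1:**
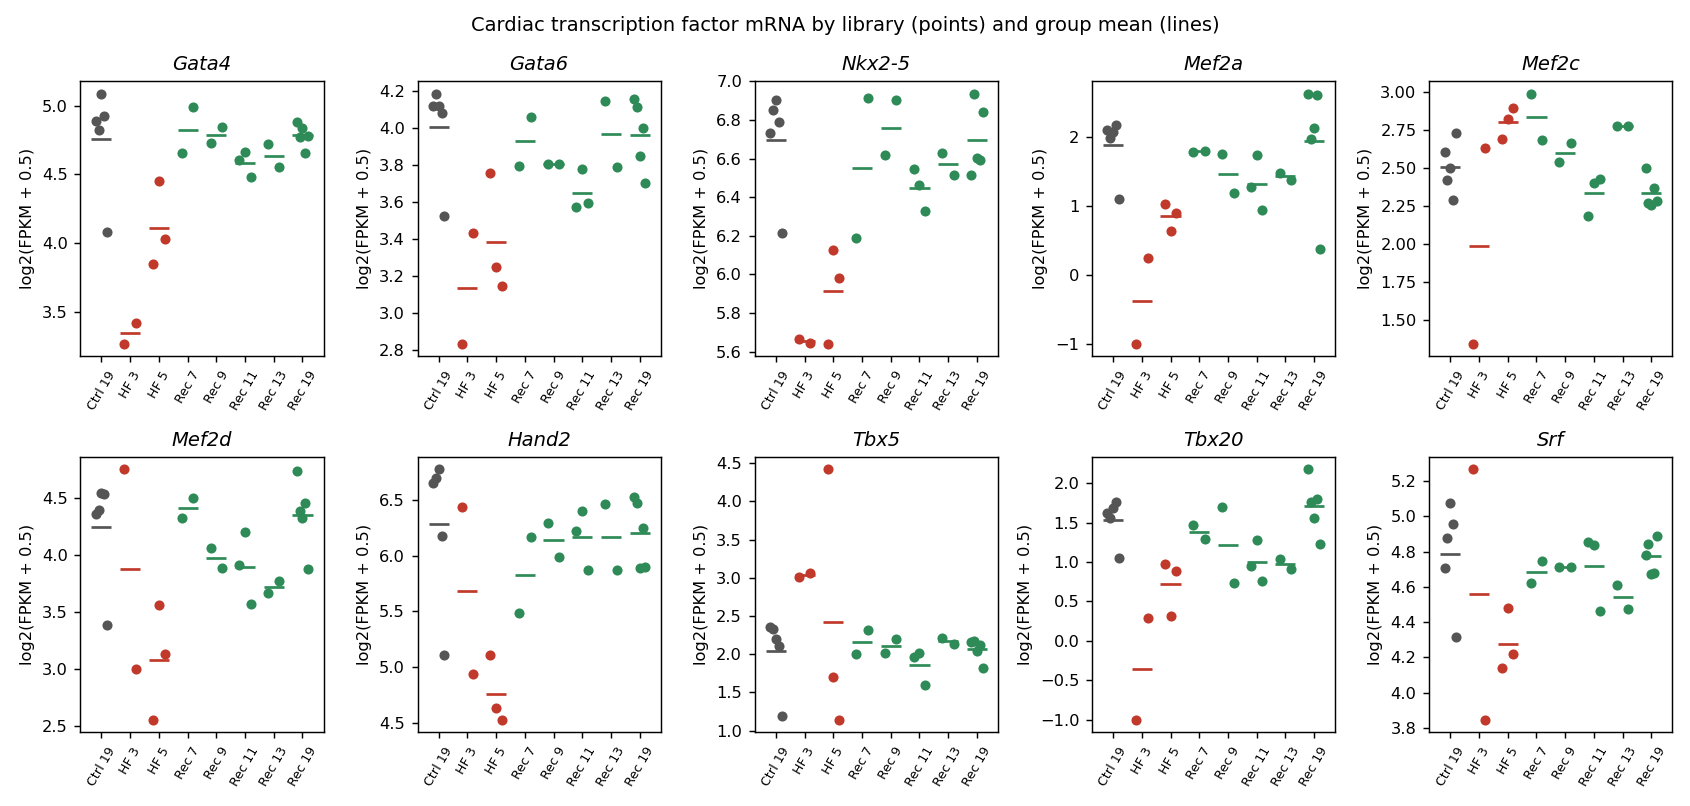
Each panel shows 1 factor, each point 1 library and each line the group mean, as log2(FPKM + 0.5), with control in grey, HF in red and recovery in green. The vertical scales differ between panels. Nkx2-5 and Hand2 in HF week 5 lie below every control library, whereas Tbx5 is high in both HF week 3 libraries and in 1 HF week 5 library.

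Gata4, a zinc finger factor needed for heart muscle growth and its response to load, was at 29.1, 27.8, 33.5, 29.8 and 16.4 FPKM in Control week 19. It was at 13.9, 21.4 and 15.8 FPKM in HF week 5. Only the low Control week 19 library 5 made the groups overlap. The log2 fold change was -0.65 ± 0.172 (SE; 95% interval -1.01 to -0.29; adjusted p = 0.0108, and 0.000183 to 0.0916 over 19 alternative settings). Gata4 was at 29.0, 26.8, 28.1, 24.7 and 26.9 FPKM in Recovery week 19, above every HF week 5 library.

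Gata6, its close relative, was lower in level, at 16.9, 17.7, 16.9, 16.4 and 11 FPKM in the controls. It was at 13, 8.99 and 8.35 FPKM in HF week 5, where library 1 lay inside the control range. The fall of 0.63 on the log2 scale had an adjusted p of 0.0133 (0.000809 to 0.0737 over 19 alternatives), and leaving out HF week 5 library 3 took the call away. The ratio of Gata4 to Gata6 was between 1.49 and 1.98 in the controls. Among the HF week 5 libraries it was 1.07 in library 1 and 2.38 and 1.90 in the others, so the libraries moved to both sides of the control range or stayed in it.

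Nkx2-5, the homeobox factor at the head of the heart muscle program, had the highest level of the 10 factors, above 93.9% of the genes tested in control. Its values were 106, 115, 119, 110 and 73.7 FPKM in the controls and 49.4, 69.4 and 62.6 FPKM in HF week 5. No HF week 5 library reached the lowest control. The fall of 0.78 on the log2 scale (95% interval -1.13 to -0.43) passed at an adjusted p of 0.00294 and under each of the 19 alternatives (0.000388 to 0.0326). By Recovery week 19 it was at 90.9, 122, 96.6, 96.0 and 114 FPKM.

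Of the 3 MEF2 genes only Mef2d was called in HF week 5, and the difference between the genes was not tested. Mef2d was at 20.0, 20.6, 22.9, 22.7 and 9.94 FPKM in the controls and at 5.37, 11.3 and 8.24 FPKM in HF week 5. It fell by 1.16 on the log2 scale (SE 0.321, adjusted p = 0.0131, 0.00194 to 0.112 over 19 alternatives), with the overlap again due to Control week 19 library 5. Mef2a was at 3.82, 3.48, 3.72, 4.04 and 1.64 FPKM in the controls and at 1.55, 1.05 and 1.37 FPKM in HF week 5. All HF week 5 libraries were below all controls, but the difference of -1.04 on the log2 scale (SE 0.398) did not pass for Mef2a (adjusted p = 0.0647, 0.0192 to 0.166 over 19 alternatives). The estimate for Mef2c was above 0. It was at 5.58, 4.86, 5.17, 4.40 and 6.14 FPKM in the controls and at 5.95, 6.58 and 6.93 FPKM in HF week 5, which was not a called difference (log2 fold change 0.29, 95% interval -0.10 to 0.68, adjusted p = 0.27, 0.0392 to 0.464 over 19 alternatives).

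Mef2c therefore made up a larger part of the summed MEF2 mRNA in HF week 5, as a description of these libraries without a test. Its share was 19% or less in 4 control libraries and 34.6% in Control week 19 library 5. In HF week 5 it was between 34.8% and 46.3%, and in Recovery week 19 between 13.9% and 22.6%. The sum itself was 17.7 to 31.8 FPKM in the controls, 12.9 to 18.9 in HF week 5 and 19.4 to 37.1 in Recovery week 19. The share of Mef2c thus lay higher in HF week 5 than in every control library, but only just so for Control week 19 library 5.

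**Figure D2:**
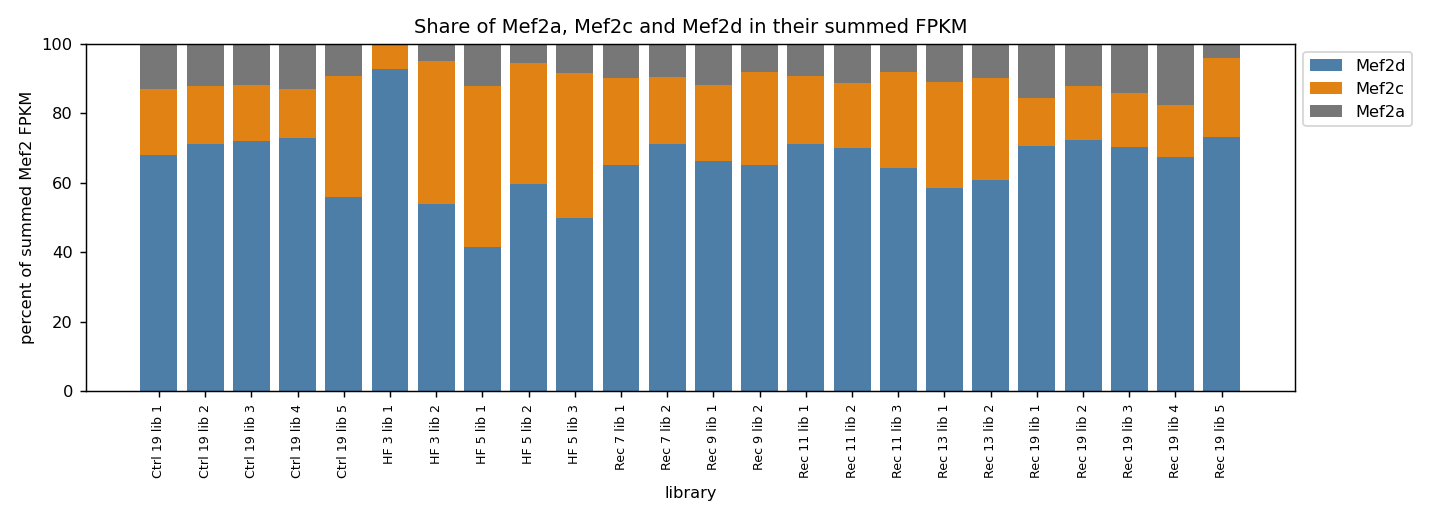
Stacked bars show the share of Mef2d, Mef2c and Mef2a in their summed FPKM, in percent, 1 bar per library. Mef2c takes 34.8% to 46.3% in HF week 5 and 13.9% to 22.6% in Recovery week 19, and HF week 3 library 1, where Mef2a is listed at 0, differs from all others.

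Hand2, a factor of right ventricular development that is also present in other cells of the adult heart, had the largest fall of the 10 factors. It was at 100, 103, 109, 71.9 and 34.0 FPKM in the controls and at 33.9, 24.3 and 22.6 FPKM in HF week 5. The groups touched without overlap, since HF week 5 library 1 (33.9 FPKM) and Control week 19 library 5 (34.0 FPKM) were nearly equal. The log2 fold change was -1.53 ± 0.345 (SE; 95% interval -2.25 to -0.81; adjusted p = 0.00391), and the call held under each of the 19 alternatives (0.000234 to 0.0193). Hand2 was at 91.4, 88.4, 58.9, 75.4 and 59.0 FPKM in Recovery week 19.

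Of the T-box factors Tbx20 was called and Tbx5 was not. Tbx20, a T-box factor of the adult muscle cell, was low, at 2.57, 2.44, 2.73, 2.90 and 1.58 FPKM in the controls. It was at 1.46, 0.745 and 1.35 FPKM in HF week 5, all below the lowest control. The fall of 0.81 on the log2 scale passed at an adjusted p of 0.0372, but it was called in 10 of 19 alternatives (0.00332 to 0.161). Leaving out any 1 of the HF week 5 libraries or of Control week 19 libraries 1 to 4 took the call away. The estimate was then -0.94 without HF week 5 library 1, -0.61 without library 2 and -0.89 without library 3, so the call was lost without the fall always being smaller.

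Tbx5 was at 4.60, 4.54, 4.08, 3.79 and 1.79 FPKM in the controls. Among the HF week 5 libraries it was at 20.9 FPKM in library 1 and at 2.75 and 1.71 FPKM in libraries 2 and 3. Library 1 was thus above every control, library 2 below 4 of the 5 controls and library 3 below all 5. Over all libraries the log2 fold change was 0.39 (95% interval -0.56 to 1.33, adjusted p = 0.569, 0.00253 to 0.897 over 19 alternatives). Without HF week 5 library 1 it was -0.61 (adjusted p = 0.11 in limma), and with Control week 19 library 5 also left out -0.82 (adjusted p = 0.00253 in limma). The high Tbx5 of that HF week 5 library was known when the factors were chosen. Leaving out both libraries was chosen after seeing the data, so these p-values are descriptions and no test of Tbx5. The sign of the Tbx5 difference therefore rested on 1 library.

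That library also held the highest atrial genes. In HF week 5 library 1 Myl4 was at 11435 FPKM, Sln at 9904, Dkk3 at 134 and Nppa at 42004 FPKM. In libraries 2 and 3 Myl4 was at 116 and 8.05 FPKM, Sln at 147 and 1.28 FPKM, Dkk3 at 6.68 and 1.98 FPKM and Nppa at 2100 and 2214 FPKM. All 10 atrial genes were highest in library 1 of the 3. Libraries 2 and 3 stood in the order of Tbx5 for Myl7, Myl4, Sln, Dkk3, Kcnj3, Kcnj5 and Bmp10 and in the opposite order for Nppa, Nr2f1 and Nr2f2. The high Tbx5 of this library was known when the factors were chosen and is a description. Of the 10 atrial genes Nppa is listed at 0 in HF week 3 and Bmp10 was under the filter. Of the other 8, 5 rose in HF week 5 (Myl7, Myl4, Sln, Dkk3 and Nr2f2), where 24.0% of all genes were called. Kcnj3 fell by 1.43 on the log2 scale (adjusted p = 0.0147 in limma), while Nr2f1 at 0.47 and Kcnj5 at -0.39 did not pass. Without library 1, where 10.7% of all genes were called, Myl7, Myl4, Sln and Dkk3 still rose (by 4.73, 4.01 and 2.54 for Myl7, Sln and Myl4). Kcnj3 and Kcnj5 then fell (by 1.92 and 0.90), and Nr2f2 at 0.45 was no longer called. The part of atrial RNA in the level of Tbx5 and of the other factors was not tested.

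**Figure D3:**
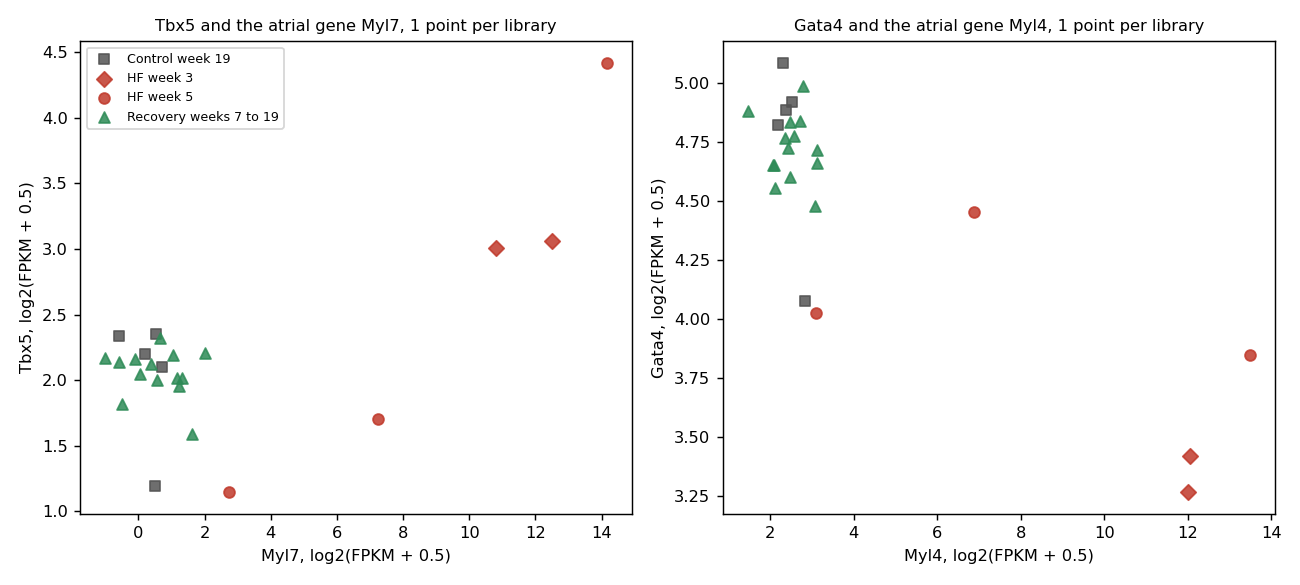
Each point is 1 library, with FPKM on log2(FPKM + 0.5) scales: Tbx5 against the atrial gene Myl7 on the left and Gata4 against the atrial gene Myl4 on the right. The HF week 5 library with 18388 FPKM of Myl7 has 20.9 FPKM of Tbx5, and Gata4 is low in HF libraries with high and with low Myl4.

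Srf, the factor of the CArG box, was at 25.6, 28.9, 33.2, 30.5 and 19.4 FPKM in the controls and at 17.1, 21.8 and 18.1 FPKM in HF week 5. HF week 5 library 2 lay above the lowest control. The log2 fold change of -0.51 (95% interval -0.96 to -0.06) did not pass (adjusted p = 0.0937, 0.00896 to 0.289 over 19 alternatives).

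The upstream sequence of Srf is shown because it carries the site of its own protein. It was read from the RefSeq promoter table of GRCm38.p6, another build than the authors' mm9. Windows of 7 of the 10 factors were read, without Gata4, Gata6 and Tbx5. The stretch is chr17:46556195-46556264 on the minus strand, from base -102 to base -33 relative to the start of the transcript, with the CArG boxes in capitals:

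Srf: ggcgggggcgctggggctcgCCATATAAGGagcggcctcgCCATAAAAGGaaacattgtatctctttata

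The boxes lie at bases -82 to -73 and -62 to -53. Of 32851 promoter windows of 250 bases, 1.47% held a CArG box on either strand. Among the other factors the window of Hand2 held a GATA match (AGATAA or its reverse complement TTATCT, in 9.99% of all windows) and a match to the NKX2-5 core AAGTG or CACTT, which was in 40.7% of all windows and also in those of Mef2c and Srf. No window of the 7 factors held the T-box letters GGTGTGA or TCACACC (3.33% of all windows) or a MEF2 site (2.92%). These matches describe letters in a short window and no binding was measured.

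In Recovery week 19 against HF week 5 the same number of factors passed in the other direction. The mice of Recovery week 19 were 14 weeks older than those of HF week 5, so age and the end of treatment cannot be told apart here. Gata4, Gata6, Nkx2-5, Mef2d, Hand2 and Tbx20 rose, 6 of 10, where 24.2% of all genes were called and 12.3% were called higher. The median log2 fold change was 0.73 over the factors and -0.043 over all genes. The libraries of HF week 5 enter both this comparison and the one with control, so the comparisons are not independent. At an unadjusted p under 0.05 the count was 9 of 10, with 36.8% of all genes.

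Hand2 rose by 1.45 on the log2 scale (SE 0.345, adjusted p = 0.00531, 0.00152 to 0.0253 over 19 alternatives). Mef2d rose by 1.28 (SE 0.321, adjusted p = 0.00762, 0.000984 to 0.0698), from 5.37 to 11.3 FPKM in HF week 5 to 26.2, 20.4, 19.5, 21.5 and 14.2 FPKM. Tbx20 rose by 0.98 (adjusted p = 0.0141, 0.00104 to 0.0746), to 4.03, 2.89, 2.46, 2.98 and 1.84 FPKM. These factors and Gata4, Nkx2-5 and Srf, 6 in all, had every Recovery week 19 library above every HF week 5 library, as did 14.1% of all genes. Nkx2-5 rose by 0.78, Gata4 by 0.67 and Gata6 by 0.58, with adjusted p of 0.003, 0.00865 and 0.0201 in limma and highest values over the alternatives of 0.0309, 0.0723 and 0.102.

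The remaining 4 factors did not pass. Mef2a was at 5.72, 3.42, 3.90, 5.64 and 0.795 FPKM in Recovery week 19, and its log2 fold change of 1.09 had an adjusted p of 0.0518 (0.00147 to 0.138 over 19 alternatives). Recovery week 19 library 5 was the library below HF week 5, and without it Mef2a passed, at the lower end of that range. Srf was at 27.0, 28.2, 25.0, 25.1 and 29.1 FPKM, above all HF week 5 libraries, with a log2 fold change of 0.49 (adjusted p = 0.103, 0.0104 to 0.296). Mef2c was at 5.17, 4.33, 4.29, 4.67 and 4.38 FPKM, below all HF week 5 libraries, with a log2 fold change of -0.46 (adjusted p = 0.0758, 0.00279 to 0.187). Tbx5 was at 3.96, 4.00, 3.62, 3.85 and 3.02 FPKM, and its log2 fold change of -0.36 became 0.64 without HF week 5 library 1 (adjusted p = 0.0887 in limma). The high Tbx5 of that library was known beforehand, so this p-value is likewise a description.

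Without HF week 5 library 1, 4 factors (Gata6, Nkx2-5, Hand2 and Tbx20) and 12.2% of all genes were called, and Gata4 at 0.54 (adjusted p = 0.0723 in limma) and Mef2d at 1.01 (adjusted p = 0.0698 in limma) were not. Without the HF week 3 libraries, 9 factors and 34.1% of all genes were called, all but Tbx5.

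**Figure D4:**
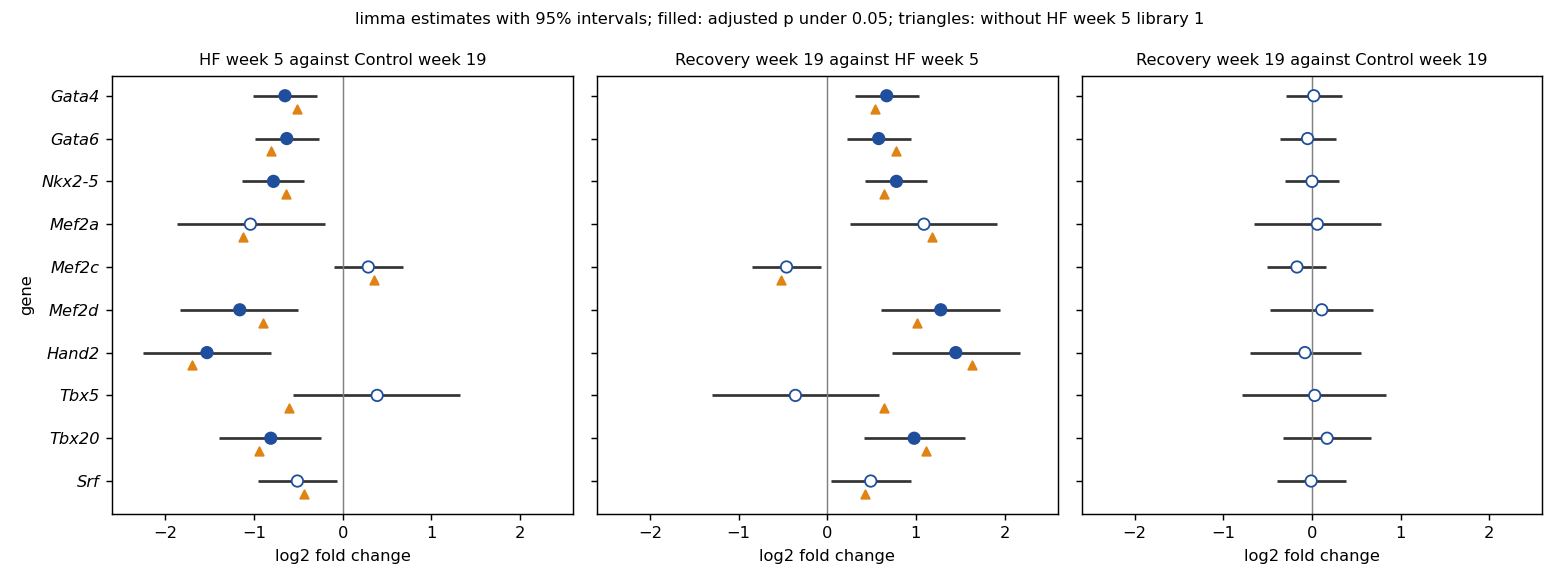
Points are the limma log2 fold changes of log2(FPKM + 0.5) with 95% intervals, filled where the adjusted p was under 0.05, for 3 comparisons. Triangles give the estimate without HF week 5 library 1, which moves Tbx5 from 0.39 to -0.61 in HF week 5 against control, and all Recovery week 19 estimates against control lie close to 0.

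Recovery week 19 against Control week 19 addressed whether the factors were back at the level of untreated mice. The log2 fold changes lay between -0.17 (Mef2c) and 0.17 (Tbx20). None of the 10 factors was called by limma, none at an unadjusted p under 0.05, and none in the 21 alternatives, where 0.0235% of all genes were called after adjustment and 2.88% at an unadjusted p under 0.05. The intervals give the precision of this: -0.31 to 0.30 for Nkx2-5, -0.29 to 0.34 for Gata4, -0.70 to 0.55 for Hand2 and -0.79 to 0.84 for Tbx5. For Nkx2-5 and Gata4 a remaining difference of the size of the HF week 5 change lies outside the interval, and for Tbx5 the interval is wide.

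The libraries of Recovery weeks 7 to 13 showed no called difference of a factor from control. Against Control week 19 0 of the 10 were called by limma after adjustment (0.0705% of all genes), and 0 at an unadjusted p under 0.05 (6.90%). The median log2 fold change was -0.15 over the factors and -0.004 over all genes. Without Control week 19 library 5, 4 factors had an unadjusted p under 0.05 in limma, as did 10.7% of all genes: Gata4 at -0.22, Gata6 at -0.29, Hand2 at -0.50 and Tbx20 at -0.51. Their adjusted p was 0.419 to 0.442 in limma, and the median over the 10 factors was then -0.26. Gata4 was at 24.7 and 31.3 FPKM in week 7, at 26.0 and 28.2 in week 9, at 23.8, 24.8 and 21.8 in week 11 and at 25.8 and 23.0 FPKM in week 13, above all HF week 5 libraries. Hand2 was between 44.2 FPKM in a week 7 library and 87.8 FPKM in a week 13 library, likewise above HF week 5. Tbx20 had the lowest estimate, -0.39 (95% interval -0.83 to 0.05, adjusted p = 0.788 in limma). Mef2d was at 12.2 and 13.2 FPKM in week 13, between the HF week 5 libraries and most controls.

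**Figure D5:**
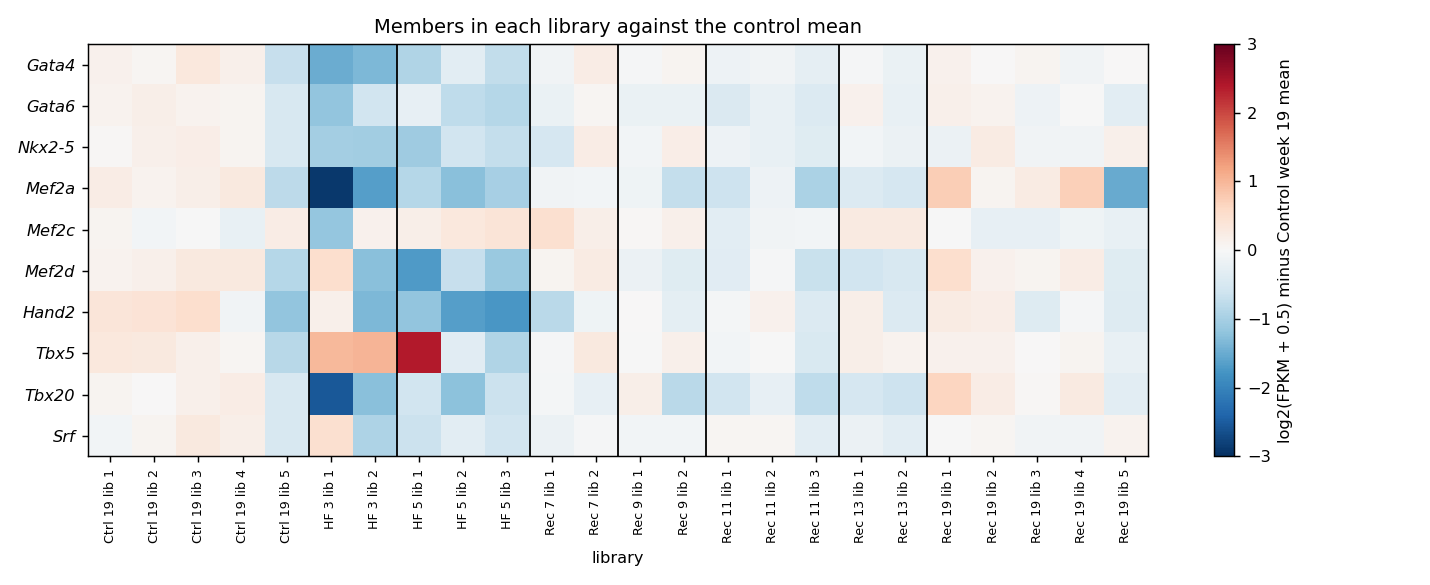
Rows are the 10 factors and columns the 24 libraries, coloured by the difference of log2(FPKM + 0.5) from the Control week 19 mean (blue lower, red higher). In HF week 5 the columns are blue for most factors, with Mef2c above control in all 3 libraries and Tbx5 above it in library 1 alone. HF week 3 library 1 is above the control mean for Mef2d, Srf, Hand2 and Tbx5, most recovery cells are pale apart from Mef2a in Recovery week 19 library 5 (0.795 FPKM), and Control week 19 library 5 is lower than the other controls for most factors.

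HF week 3, in the middle of induction, rested on a pair of libraries that differ in the number of genes listed. Against Control week 19, 6 factors fell (Gata4, Gata6, Nkx2-5, Mef2a, Mef2c and Tbx20), where 50.7% of all genes were called and 27.6% were called lower. Gata4 was at 9.12 and 10.2 FPKM, lower than in any other library, a fall of 1.42 on the log2 scale (SE 0.197, adjusted p = 1.61e-05 in limma). Nkx2-5 was at 50.3 and 49.5 FPKM, a fall of 1.04 on the log2 scale (adjusted p = 0.000246 in limma). Both held without HF week 3 library 1, at -1.34 and -1.05. Mef2a and Tbx20 were listed at 0 in library 1 and were at 0.690 and 0.722 FPKM in library 2, below all controls. Their falls of 2.27 and 1.89 on the log2 scale count the 0, which can be a failed estimate, as a level. Without library 1 Mef2a was at -1.64 (adjusted p = 0.0356 in limma) and Tbx20 at -1.25 (adjusted p = 0.0111 in limma), and both were still called.

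Other factors differed between the HF week 3 libraries. Mef2d was at 26.5 and 7.48 FPKM, Hand2 at 86.2 and 30.1 FPKM, Srf at 38.0 and 13.9 FPKM and Mef2c at 2.04 and 5.71 FPKM. Library 1 was the high library for Mef2d, Hand2 and Srf and the low one for Mef2c. Without library 1, 7 factors and 30.1% of all genes were called, with Mef2d at -1.25, Hand2 at -1.35 and Srf at -0.94 among them, and Mef2c at 0.12 and Gata6 at -0.58 no longer called. Tbx5 was at 7.53 and 7.84 FPKM, above every control, with a log2 fold change of 1.00 that did not pass (95% interval -0.08 to 2.08, adjusted p = 0.114 in limma). The atrial gene Myl7 was at 1805 and 5773 FPKM in the same libraries, and the part of atrial RNA in the Tbx5 level was not tested.

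HF week 3 against HF week 5 was tested directly. Gata4 (-0.77), Mef2c (-0.81) and Tbx20 (-1.08) were lower at week 3, 3 of 10 factors where 21.4% of all genes were called. Without HF week 3 library 1 none of the 10 was called, where 1.31% of all genes were, with Gata4 at -0.69 (adjusted p = 0.302 in limma), Mef2c at -0.17 and Tbx20 at -0.44. The estimate thus moved little for Gata4 and shrank for Mef2c and Tbx20. Without HF week 5 library 1, 3 factors and 23.7% of all genes were called. Gata4 (-0.90) and Mef2c (-0.87) were again lower at week 3, and Tbx20 at -0.96 was not called (adjusted p = 0.0711 in limma). Tbx5 was the other factor called, at 1.61 (adjusted p = 0.00091 in limma) where it was 0.61 with all libraries. Its high level in the library left out was known when the factors were chosen, so this p-value is a description and no test of Tbx5.

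Partners and cofactors of these factors, the other heart transcription factors on a list of 26 genes of which 21 were tested, had 6 called against control in HF week 5, near the 24.0% of all genes called. Of these, 5 fell and 1 rose, and 15 did not pass, with a median log2 fold change of -0.13 where that of all genes was 0.043. Myocd, the cofactor through which SRF drives muscle genes, fell by 1.08 on the log2 scale (adjusted p = 0.00702 in limma), from 2.92 ± 0.816 FPKM (SD, n = 5) to 1.13 ± 0.503 FPKM (SD, n = 3). Hopx, a homeodomain protein that restrains SRF, fell by 1.04 (adjusted p = 8.36e-05 in limma), and the Iroquois factor Irx3 fell by 0.90 (adjusted p = 0.0264 in limma). Nfatc4, which carries calcineurin signals to the nucleus, was the gene that rose, by 0.92 (adjusted p = 0.00307 in limma). In Recovery week 19 against HF week 5, 5 rose, 1 fell and 15 did not pass, with Myocd at 1.11, Hopx at 0.95, Irx3 at 1.13 and Nfatc4 at -0.73, where 24.2% of all genes were called. With HF week 5 library 1 left out, Hopx (-0.86) and Nfatc4 (0.82) were the 2 genes of the list called against control, where 10.7% of all genes were called, and Myocd was at -0.84 (adjusted p = 0.0721 in limma) and Irx3 at -0.49 (adjusted p = 0.261 in limma). In Recovery week 19 against HF week 5 Hopx (0.77) was then the 1 gene of the list called, where 12.2% of all genes were called.

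Known targets moved in both directions. Of 14 SRF targets 8 rose, 2 fell and 4 did not pass in HF week 5, where 24.0% of all genes were called, with a median of 0.45. Acta1, the skeletal actin of the stressed heart, rose by 2.18 (adjusted p = 0.00145 in limma), Myl9 by 1.70 and Cnn1 by 1.44, whereas Fhl2 fell by 1.07 (adjusted p = 0.00179 in limma). Acta2, Tagln and Cnn1 on this list are also markers of smooth muscle, whose list had 3 of 6 genes higher. Srf itself did not pass in this comparison. In Recovery week 19 against HF week 5, 8 of the 14 fell, 1 rose and 5 did not pass, where 24.2% of all genes were called. When HF week 5 library 1 was left out, 4 of the 14 were called against control, where 10.7% of all genes were. Of these 4, 3 were higher and 1 lower, and the median of the 14 was 0.33. Acta1 was then at 2.56, Acta2 at 1.08, Myl9 at 1.01 and Fhl2 at -0.62, and Cnn1 at 1.02 was no longer called (adjusted p = 0.127 in limma). In Recovery week 19 against HF week 5 the count was then 6, 5 lower and 1 higher at Recovery week 19, where 12.2% of all genes were called.

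Of 6 MEF2 targets 1 rose (Xirp2, by 1.12), 3 fell (Smyd1 by 0.99, Ppargc1a by 0.93 and Hrc by 0.46) and 2 did not pass in HF week 5 against control, with a median of -0.48, where 24.0% of all genes were called. The median was -0.10 without HF week 5 library 1. Xirp2 (1.22) and Smyd1 (-0.75) were then still called, where 10.7% of all genes were. Ppargc1a at -1.01 (adjusted p = 0.0884 in limma) and Hrc at -0.16 (adjusted p = 0.413 in limma) were not. Smyd1, a muscle histone methyltransferase, went from 122 ± 15.6 FPKM (SD, n = 5) in control to 62.9 ± 17.6 FPKM (SD, n = 3). Of 12 targets of GATA4, NKX2-5 and TBX5, 3 (Nppa, Myh6 and Actc1) are listed at 0 in a group. Of the other 9, 1 rose, 3 fell and 5 did not pass in HF week 5, with a median of -0.28, again beside 24.0% of all genes. The median was 0.11 without HF week 5 library 1. Nppb, which encodes brain natriuretic peptide, rose by 2.09 (adjusted p = 0.00165 in limma), and the sodium-calcium exchanger Slc8a1 fell by 0.73 and the calcium pump Atp2a2 by 0.70. These 3 passed in the other direction in Recovery week 19, with log2 fold changes against HF week 5 of -2.41, 0.60 and 0.61. All 3 were called in both comparisons without HF week 5 library 1 as well, at 2.26, -0.73 and -0.65 against control.

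Markers of other cells were also called in HF week 5, where 24.0% of all genes were. Of 7 fibroblast genes 5 rose and none fell, with a summed level of 248 to 352 FPKM in control and 345 to 673 FPKM in HF week 5. Of 6 endothelial genes 3 rose and none fell, with sums of 179 to 205 and 212 to 282 FPKM. The 6 immune genes tested did not pass (median 0.46). Of 6 general muscle cell genes with a fold change Pln fell and 5 did not pass, with a median of -0.14. The summed level of these 6, without Myh6, was 20191 to 25272 FPKM in control and 17488 to 24210 FPKM in HF week 5. The 3 ventricular genes with a fold change did not pass (median -0.68). Without HF week 5 library 1, where 10.7% of all genes were called, none of the 7 fibroblast genes was called by limma (median 0.47). The 3 endothelial genes Tie1, Tek and Emcn were called, and Pln at -0.36 was not. The median of the ventricular genes was then -0.04, with Myl3 at -0.04 and Irx4 at -0.18. In HF week 3 against control 4 of the 6 general muscle cell genes fell and none rose (median -0.71), where 50.7% of all genes were called. Of the 7 fibroblast genes 5 rose and none fell, and of the 6 endothelial genes 4 rose and 1 fell. In HF week 3 the muscle cell sum was 14959 to 15234 FPKM and the fibroblast sum 679 to 707 FPKM. The part of these shifts in the levels of the factors was not tested at either week.

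Across the 24 libraries the correlation of log2 levels between factors is given as a description over libraries that share groups. Mef2a and Tbx20 had the highest (Pearson r = 0.93), and Gata4 and Nkx2-5 followed (r = 0.92). Mef2d and Srf and likewise Gata6 and Mef2a were at 0.86, and Gata6 and Tbx20 at 0.84. With the group means removed these 5 were 0.81, 0.78, 0.85, 0.68 and 0.69. The order depended on the HF week 3 libraries, where library 1 lists Mef2a and Tbx20 at 0. Leaving both out gave 0.86 for Mef2a and Tbx20, below Gata4 with Mef2d (0.90, from 0.53), with Nkx2-5 (0.89) and with Srf (0.89, from 0.46). Mef2c and Srf ran opposite, at -0.64 and, with the group means removed, at -0.85. Without the HF week 3 libraries these values were -0.62 and -0.52. Tbx5 and Gata6 were at 0.06 over libraries and at 0.70 with the group means removed, and without HF week 5 library 1 at 0.10 and 0.75. Other pairs of Tbx5 changed more without that library. With the group means removed it was then at 0.87 with Gata4 (0.05 with all libraries) and at 0.69 with Nkx2-5 (-0.05). It was at 0.71 with Hand2 (0.49) and at -0.19 with Mef2c (-0.20).

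The genes most like each factor over the 24 libraries were different for most factors. Gata4 was closest to Kcnj11, a subunit of the ATP-sensitive potassium channel (r = 0.977), and to Mfn2, a fusion protein of mitochondria (r = 0.973). Gata6 was closest to the potassium channel gene Kcnj3 (r = 0.932), and Nkx2-5 to Apba3 (r = 0.958) and the sarcoglycan gene Sgca (r = 0.951). Klc2 was near both Gata4 (r = 0.973) and Nkx2-5 (r = 0.948), and Ubxn2a was near both Mef2a (r = 0.961) and Tbx20 (r = 0.957). Mef2c was closest to the homeobox gene Meox2 (r = 0.929, and 0.834 without the HF week 3 libraries), and Mef2d to Tbc1d20 (r = 0.955). Tbx5 was closest to Cacna1h, a calcium channel gene (r = 0.903, Spearman's rho 0.727), and this r was 0.796 without HF week 5 library 1, the library with 20.9 FPKM of Tbx5. Hand2 was closest to Midn (r = 0.912) and Srf to Fbxw4 (r = 0.907).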

How the data were processed

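The authors isolated poly(A) RNA from frozen mouse heart, aligned paired-end reads to mm9 (MGSCv37) with TopHat and computed the deposited FPKM values with Cuffdiff. The annotation and the scaling between libraries are not given in the sources used here. Of 29 columns, 24 were used: 5 carry the name of week 5 controls, for which 4 samples are labelled, so these were left out and Control week 19 took their place. Recovery week 9 has 2 columns for 3 labelled samples. Columns carry no sample letters, so libraries are numbered in table order. The labels do not say how libraries relate to animals, so p-values measure the spread between libraries.

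Genes averaging 0.5 FPKM or more over the libraries were kept, and their log2(FPKM + 0.5) entered a limma model (version 3.58.1, R 4.3.3) of 8 group means with 16 residual degrees of freedom and trended eBayes. Tests were two-sided, and p-values were adjusted by Benjamini-Hochberg over all 12759 genes and called under 0.05. Fold changes on this scale understate those of low genes. Alternatives varied the pseudocount, the filter, the groups in the fit, centring, quantile normalization, robust estimation, the threshold and single libraries. Fits without HF week 3, without 2 libraries together and without the length trend (loess, span 0.3) were chosen after seeing the data. The members and gene lists were chosen with earlier results of these data known. All 10 members are named, up to 4 called genes of each list by the size of the change, all atrial genes, and up to 3 genes most like each member. The values of 1 listed gene are not reported here.

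Transcript lengths came from GENCODE transcripts of GRCm38 by symbol, for 84% of the genes tested. Depth is not known in counts. Relative depth came from the steps between low values. Motifs were sought in both strands of RefSeq windows. The steps were tested on simulated data. Tables and plots used Python 3.11.15, numpy 2.4.6, pandas 2.3.3, scipy 1.17.1 and matplotlib 3.10.9.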

Additional observations from a re-analysis of the deposited data

Results flagged for a closer look

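Control week 19 library 5 lay far below the other 4 control libraries for 6 of the 10 factors by Dixon's criterion. It was at 16.4 FPKM for Gata4, 11 for Gata6, 73.7 for Nkx2-5, 1.64 for Mef2a, 9.94 for Mef2d and 1.79 FPKM for Tbx5. Over the 20 groups tested, chance flags about 1 in 20. Values of 1 library are not independent across genes.

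In limma's test of HF week 3 against HF week 5, 3 of the 10 factors were called, where 21.4% of all genes were. The log2 fold changes were -0.77 for Gata4, -0.81 for Mef2c and -1.08 for Tbx20. Without HF week 3 library 1, where Tbx20 is listed at 0, none of the factors and 1.31% of all genes were called. The estimates were then -0.69 for Gata4, -0.17 for Mef2c and -0.44 for Tbx20. With only the groups compared in the fit, or without the filter on low values, 0 factors were called.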

How the results depend on the processing

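No paired analysis was possible because the columns carry no replicate letters. For the single factors, 174 of 200 alternative values kept direction and call in HF week 5 against control, 179 of 200 in Recovery week 19 against HF week 5 and 189 of 220 in Recovery week 19 against Control week 19.

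Leaving out 1 library at a time, the factors called ranged from 3 to 8 in HF week 5 against control and from 0 to 7 in HF week 3 against HF week 5. All genes called ranged from 1355 to 3652 (HF week 5 against control, lowest without HF week 5 library 1), from 1545 to 3255 (Recovery week 19 against HF week 5, likewise), from 3 to 5 (Recovery week 19 against control), from 3830 to 7995 (HF week 3 against control) and from 166 to 6743 (HF week 3 against HF week 5). Tbx5 ranged from -0.61 to 1.03 in HF week 5 against control and from -1.0 to 0.64 in Recovery week 19 against HF week 5, reversed without HF week 5 library 1. In Recovery week 19 against control, signs of values near 0 turned: Gata4 -0.15 to 0.11, Gata6 -0.17 to 0.02, Nkx2-5 -0.12 to 0.05, Mef2a -0.14 to 0.45, Mef2d -0.10 to 0.23, Hand2 -0.37 to 0.05, Tbx5 -0.18 to 0.11 and Srf -0.13 to 0.06.

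Without HF week 5 library 1 and Control week 19 library 5 together, Tbx5 was -0.82 and 0.64, Recovery week 19 against HF week 5 had 1829 genes called, and Recovery week 19 against control gave Gata4 -0.15, Mef2a -0.14, Mef2d -0.10 and Tbx5 -0.18. Quantile normalization gave Nkx2-5 0.02 there. The unadjusted threshold called 4653 (HF week 5 against control), 4695 (Recovery week 19 against HF week 5), 367 (Recovery week 19 against control), 880 (Recovery weeks 7 to 13) and 4993 genes and 5 factors (HF week 3 against HF week 5). With only the groups compared in the fit the counts were 4192 (HF week 3 against control), 110 (Recovery weeks 7 to 13) and 8 genes and 0 factors (HF week 3 against HF week 5). Without the filter the last comparison called 1402 genes and 0 factors, and without the HF week 3 libraries 18 genes were called in Recovery weeks 7 to 13. Beyond those left-out libraries the cause was not tested. Counting error could not be given for any factor, since depth in counts is not known.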
